A study of Mus musculus with 9 samples.

Results

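Expression of 43 genes of the DNA replication machinery was measured in cultured mouse blood progenitors, out of 18193 genes tested. The 43 were taken as a list by their known roles in replication licensing, at the replication fork and in the supply of deoxynucleotides, by a rule that uses no measured value although earlier results of these data were known when the list was drawn up, and all 43 were measured. Each gene was represented by 1 probe set, the one with the highest mean over the 9 arrays. The cells came from the bone marrow of wild-type C57/Bl6 mice, as LSK cells, which lack lineage markers, carry Sca-1 and c-Kit and include the blood stem cells. They were grown for 3 days on a layer of OP9 stromal cells, a mouse line, and RNA was taken from whatever had not adhered. There were 3 groups with 3 arrays each. The first grew on OP9-DL1, stroma that carries the Notch ligand Delta-like 1, with 1 µM CompoundE, an inhibitor of the γ-secretase that releases the active part of the Notch receptor. The second grew on OP9-DL1 without CompoundE, and the third on OP9-GFP, the control stroma. The comparisons ask what Notch ligand on the stroma changes in these cells and what remains of it when receptor cleavage is inhibited. The labels do not say whether the cultures without CompoundE received its solvent, and no culture with CompoundE on OP9-GFP was analysed here, so an effect of the compound that does not pass through Notch cannot be told apart from one that does.

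DNA replication begins with licensing in G1 phase, when the origin recognition complex, Cdc6 and Cdt1 load the ring of the MCM helicase onto DNA. In S phase Cdc45, the GINS complex and Mcm10 turn the ring into an active helicase, primase with polymerase alpha lays down primers, and polymerases delta and epsilon copy the strands with the sliding clamp Pcna and its RFC loader. Many of these genes are transcribed as cells enter S phase under the E2F factors, whose activity the retinoblastoma proteins restrain, so that their RNA is commonly higher in dividing than in resting blood progenitors.

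Promoters of 36 of the 43 genes were found in the RefSeq table for GRCm38.p6, which gives 250 bases before and 50 bases after each annotated start. Gins1, Gins2, Gins4, Prim2, Pole, Rfc2 and Mcm4 had no entry. These sequences were searched on both strands for 4 E2F words, namely TTTCCCGC, the word TTTGGCGC, the word TTTCGCGC and the word TTTGCCGC, and for the CCAAT box, the word bound by NF-Y. Words of the E2F kind can overlap each other. At least 1 E2F word stood in 14 of the 36 genes (38.9%), against 3.29% of 17491 protein-coding genes. A CCAAT box stood in 23 of the 36 (63.9%), against 42.3% of those genes. The 14 were Orc1, Orc3, Cdc6, Cdt1, Mcm3, Mcm5, Mcm6, Mcm7, Gins3, Pola1, Pold1, Pole2, Rfc3 and Lig1. The following promoters are shown because all 4 genes had lower RNA with CompoundE than on OP9-DL1 alone, while 3 held an E2F word and the fourth, Rpa3, held none. Each is written 5′ to 3′ on the strand of the gene, with E2F words and CCAAT boxes, in either orientation, in capitals.
Mcm3: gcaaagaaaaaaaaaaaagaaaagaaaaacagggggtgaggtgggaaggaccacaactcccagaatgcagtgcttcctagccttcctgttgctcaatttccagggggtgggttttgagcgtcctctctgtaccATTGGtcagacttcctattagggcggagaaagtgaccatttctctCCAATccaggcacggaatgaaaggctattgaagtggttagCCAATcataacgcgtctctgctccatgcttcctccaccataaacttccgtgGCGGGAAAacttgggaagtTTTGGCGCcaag
Mcm6: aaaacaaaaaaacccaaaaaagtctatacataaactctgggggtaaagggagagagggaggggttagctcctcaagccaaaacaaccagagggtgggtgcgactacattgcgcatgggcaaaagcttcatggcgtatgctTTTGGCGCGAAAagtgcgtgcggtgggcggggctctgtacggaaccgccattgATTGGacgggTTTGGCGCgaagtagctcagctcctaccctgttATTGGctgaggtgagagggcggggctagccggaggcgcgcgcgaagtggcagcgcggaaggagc
Pola1: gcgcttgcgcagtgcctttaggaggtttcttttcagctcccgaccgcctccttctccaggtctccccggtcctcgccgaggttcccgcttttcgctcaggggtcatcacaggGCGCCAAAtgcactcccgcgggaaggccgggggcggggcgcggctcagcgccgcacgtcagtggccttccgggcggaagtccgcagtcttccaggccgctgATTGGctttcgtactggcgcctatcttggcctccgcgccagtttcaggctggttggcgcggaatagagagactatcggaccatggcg
Rpa3: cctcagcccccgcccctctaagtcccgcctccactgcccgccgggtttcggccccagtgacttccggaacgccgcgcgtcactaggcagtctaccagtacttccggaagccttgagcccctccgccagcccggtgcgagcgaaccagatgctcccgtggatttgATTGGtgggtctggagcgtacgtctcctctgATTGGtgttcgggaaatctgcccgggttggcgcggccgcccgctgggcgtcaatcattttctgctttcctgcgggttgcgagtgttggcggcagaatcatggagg

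The Mcm3 promoter lies at chr1:20820263-20820562 on the minus strand and holds 2 E2F words, both within the 50 bases after the start, and 3 CCAAT boxes before it. The Mcm6 promoter, at chr1:128359656-128359955 on the minus strand, holds 3 E2F words, of which 2 overlap, and 2 CCAAT boxes. The Pola1 promoter, at chrX:93632106-93632405 on the minus strand, holds 1 of each, and the Rpa3 promoter, at chr6:8259092-8259391 on the minus strand, holds 2 CCAAT boxes only. A match describes letters in this window and no binding was measured.

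All 43 genes had means above the brightest of 27 bacterial control probe sets (3.64 on the log2 scale) in every group. Their group means ran from 5.80 to 12.85 on the log2 scale, on which levels of different probe sets cannot be compared. The median SD between the 3 arrays of a group was 0.0881 for OP9-DL1+CompoundE, 0.0561 for OP9-DL1 and 0.0689 for OP9-GFP, and the standard error of their log2 differences had a median of 0.0646. The number of arrays limits this precision. The labels do not tie replicates to different animals or cultures, so the p-values rest on a spread between arrays that may be technical. Of the markers that define the sorted cells, Kit was above the bacterial controls in every group. No probe set was specific to Ly6a, the gene of Sca-1. Cd34, which is not among the markers that define these cells, was also above the bacterial controls in every group. Kit, the stem cell factor receptor, averaged 8.14 ± 0.11 on OP9-DL1+CompoundE, 10.22 ± 0.16 on OP9-DL1 and 8.94 ± 0.15 on OP9-GFP (SD, n = 3 each).

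The RNA of cell type markers differed between the groups. Over 10 macrophage genes the mean log2 value ran from 9.86 to 9.89 on the OP9-DL1+CompoundE arrays, from 8.03 to 8.11 on the OP9-DL1 arrays and from 9.99 to 10.02 on the OP9-GFP arrays. In OP9-DL1 against OP9-GFP 9 of the 10 were lower, and in OP9-DL1+CompoundE against OP9-DL1 8 were higher. In OP9-DL1+CompoundE against OP9-GFP 7 were higher and 2, Mrc1 and C1qb, were lower (-1.21 and -2.56), with a median of 0.26, so that the mean and the median differ in sign. Over 10 megakaryocyte genes the mean ran from 8.42 to 8.47 with CompoundE, from 10.61 to 10.64 on OP9-DL1 and from 8.83 to 8.84 on OP9-GFP, and all 10 were higher on OP9-DL1 than on OP9-GFP and lower with CompoundE than without, while with CompoundE 7 were lower and 1 higher than on OP9-GFP. Over 14 genes of the stromal feeder the mean ran from 8.19 to 8.31 with CompoundE, from 9.20 to 9.24 on OP9-DL1 and from 8.22 to 8.29 on OP9-GFP. Of the feeder genes 11 were higher on OP9-DL1 than on OP9-GFP and 12 were lower with CompoundE than on OP9-DL1, and with CompoundE 5 were lower and 2 higher than on OP9-GFP. The macrophage gene C1qa and the stromal genes Lum and Dcn were below the brightest bacterial control in all groups. Over 6 blood and progenitor genes the mean stayed between 10.17 and 10.40 on all 9 arrays, but its genes moved in opposite directions, with 1 higher and 4 lower on OP9-DL1 than on OP9-GFP, 4 higher and 1 lower with CompoundE than on OP9-DL1, and 3 higher and 2 lower with CompoundE than on OP9-GFP. In RNA pooled from all that had not adhered, fewer cells of a type and less RNA per cell cannot be told apart. The part of these marker differences in the results below was not tested.

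On OP9-DL1 against OP9-GFP the replication genes moved in both directions and by small amounts. By limma with Benjamini-Hochberg adjustment over all genes and a threshold of 0.05, 8 of the 43 were higher (18.6%), against 15.9% of all genes, and 5 were lower (11.6%), against 16.7% of all genes, so both shares lay near the background. The higher genes were Orc4, Orc6, Mcm3, Mcm4, Mcm7, Prim1, Rfc2 and Rpa3, and the lower genes were Cdc45, Gins2, Rfc4, Tk1 and Fen1. The median log2 difference of the 43 was 0.0056, against -0.021 over all genes, and it changed sign once arrays were centred on their medians (-0.012). The 3 arrays of each group did not overlap for 12 genes that were higher (20.8% of all genes did this) and 7 that were lower (23% of all genes). None of the 13 called differences reached 1.5-fold. The calls of Orc6, Gins2, Rfc2, Rpa3 and Tk1 held in each of the alternative analyses that were run, thresholds apart. Those of Orc4, Mcm3 and Prim1 were lost with probe sets averaged, and those of Mcm7, Rfc4 and Fen1 with quantile normalization. Leaving out 1 array gave between 4 and 9 higher genes and between 3 and 6 lower genes, with 4 higher without OP9-GFP replicate 2 or OP9-DL1 replicate 1, and 3 lower without OP9-GFP replicate 1, OP9-GFP replicate 2 or OP9-DL1 replicate 2.

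With CompoundE on OP9-DL1, set against OP9-DL1 alone, most of the replication genes that changed were lower. Of the 43, 19 were lower (44.2%), against 21.6% of all genes, and 2 were higher (4.65%), against 25.1% of all genes. The lower genes were Orc3, Orc6, Mcm3, Mcm4, Mcm6, Mcm7, Gins1, Gins3, Pola1, Prim1, Prim2, Pold2, Pole, Rfc2, Rfc3, Rpa1, Rpa2, Rpa3 and Rrm1, and the higher genes were Cdc45 and Gins2. The median log2 difference of the 43 was -0.1734, against 0.0801 over all genes, and 36 of the 43 had a negative difference. With each array centred on its median the members' median was -0.0961, with 17 genes lower and 3 higher. The calls of Orc3 (-0.16, adjusted p = 0.0539) and Rpa1 were then lost, and Gins4 was called higher. The arrays of the groups did not overlap for 23 genes that were lower (23.2% of all genes) and 1 that was higher (29.3% of all genes). The called differences were small in size: only that of Rfc2 exceeded 1.5-fold. All 19 lower calls held whichever 1 of the 9 arrays was left out, and between 19 and 22 genes were then called lower. Neither higher call did: no gene was called higher without OP9-DL1 replicate 1, OP9-DL1 replicate 2 or OP9-DL1+CompoundE replicate 2.

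OP9-DL1+CompoundE against OP9-GFP gave 17 lower genes (39.5%), against 10.6% of all genes, and no higher gene, against 12.1% of all genes. No gene of the 43 had an unadjusted p under 0.05 with a positive difference. The 17 were Orc2, Orc3, Mcm3, Mcm4, Mcm5, Mcm6, Mcm7, Gins1, Pola1, Prim1, Prim2, Pold2, Rfc3, Rpa1, Rrm1, Tk1 and Fen1. The median log2 difference was -0.1695, against 0.0469 over all genes, and the arrays did not overlap for 25 genes that were lower (15% of all genes) and none that was higher (19.8% of all genes). This comparison shares its CompoundE arrays with the one above and its OP9-GFP arrays with the first, so the 3 sets of values are not independent of each other. It was also less stable: 10 genes were called lower without OP9-GFP replicate 1, and 10 with each array centred on its median, when the calls of Orc2, Orc3, Mcm3, Mcm4, Mcm5, Rfc3 and Fen1 were lost and the members' median was -0.11.

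**Figure D1:**
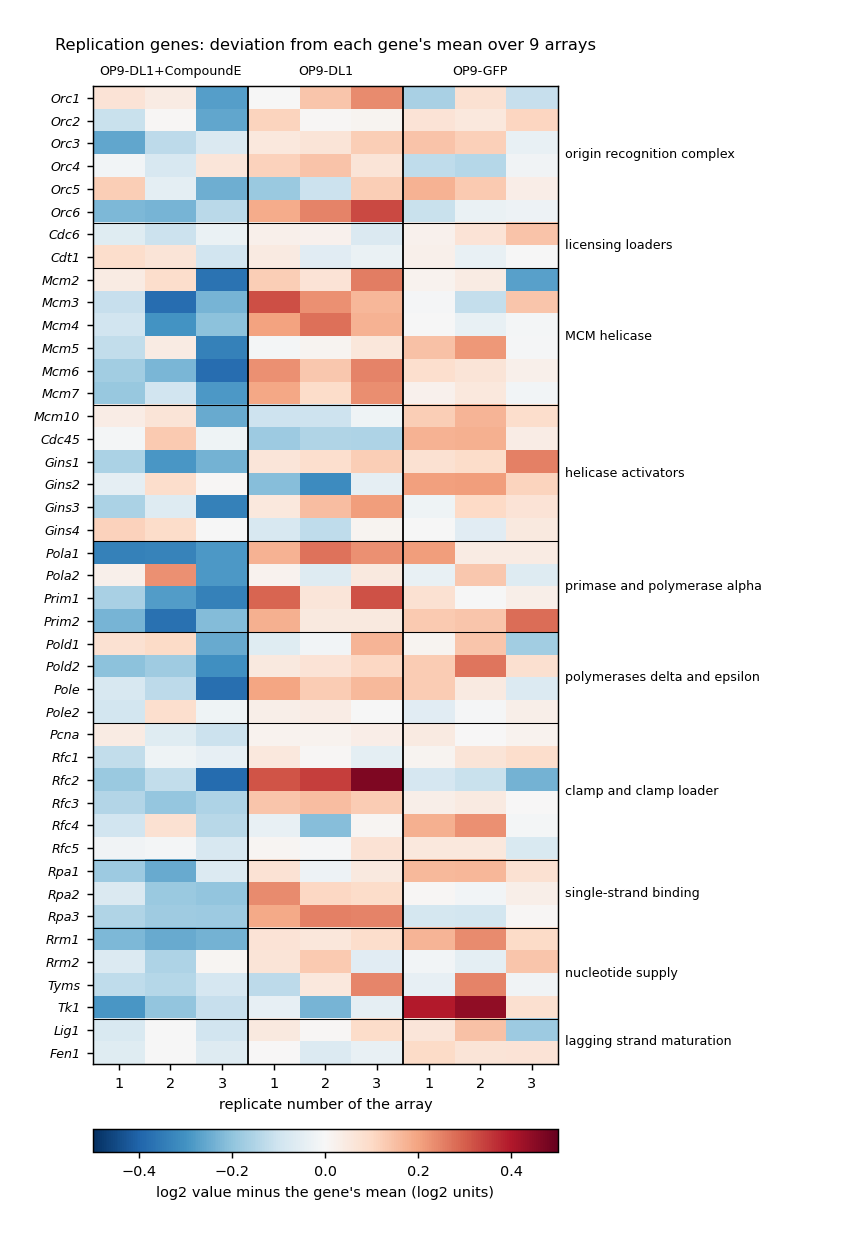
Each cell is the log2 value of 1 replication gene on 1 array minus that gene's mean over the 9 arrays, in log2 units, with genes in rows by role and arrays in columns by group. The OP9-DL1+CompoundE columns are mostly blue, with median deviations of -0.0965, -0.0965 and -0.1961, against 0.0533, 0.052 and 0.0915 on OP9-DL1 and 0.0438, 0.0654 and 0.0288 on OP9-GFP.

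The map of deviations shows that OP9-DL1+CompoundE replicate 3 had the lowest values over the list. Without it the median difference of the 43 from OP9-DL1 was -0.153 and 19 genes were still called lower.

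**Figure D2:**
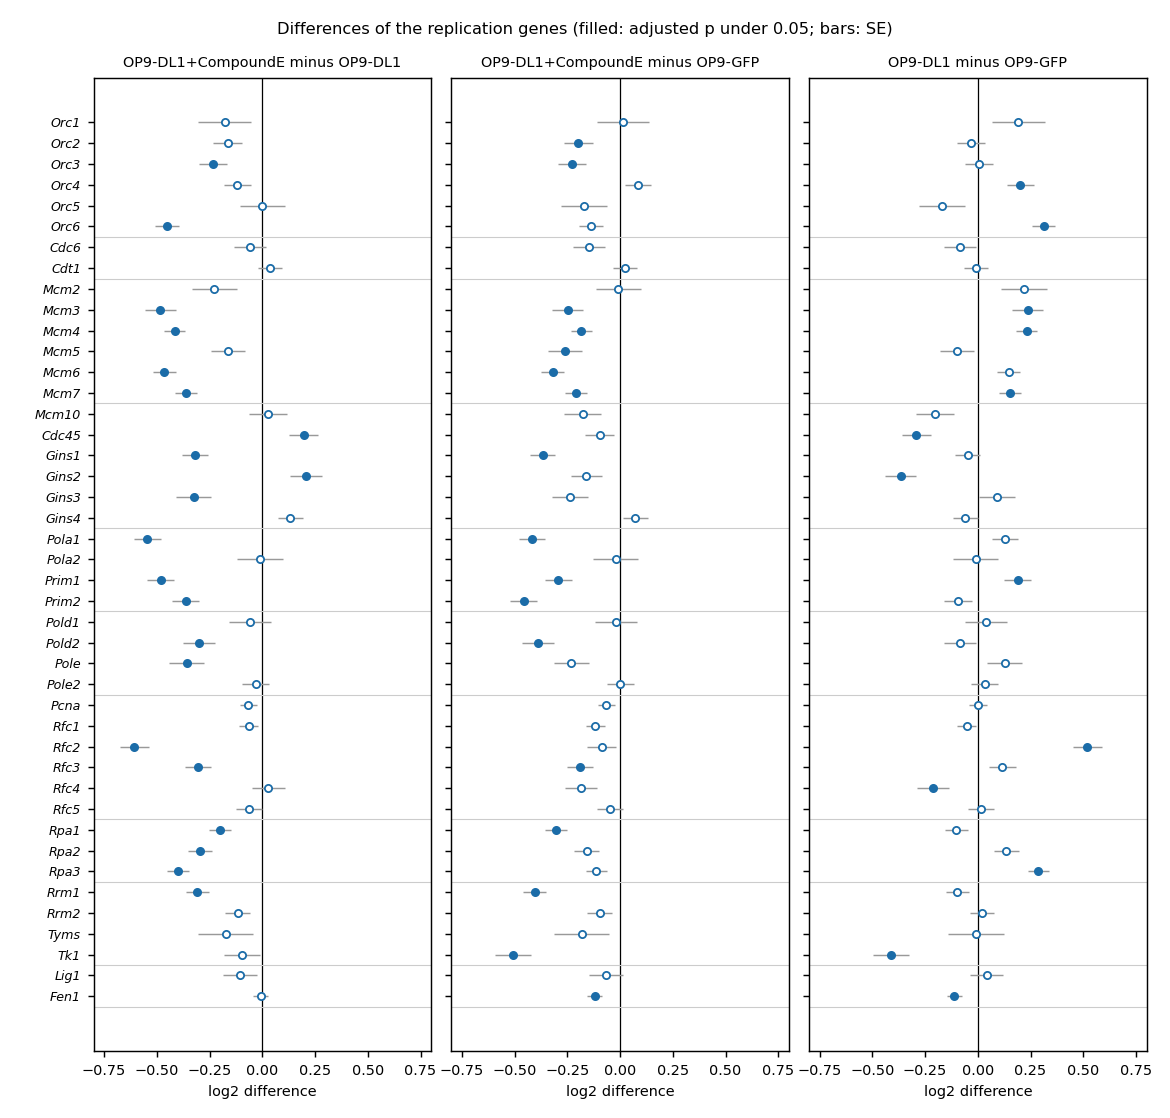
Log2 differences (x axis) of the 43 genes in the 3 comparisons, with bars of 1 standard error from limma and filled points where the adjusted p was under 0.05. In the left and middle panels the filled points lie to the left of 0 except for Cdc45 and Gins2 in the left panel, and in the right panel they lie on both sides.

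The origin recognition complex marks the sites where replication can start, and Orc6 is the subunit that binds it least tightly in animal cells. Of the 6 subunits, 2 were higher on OP9-DL1 than on OP9-GFP and 2 were lower with CompoundE than on OP9-DL1 (33.3% each, against 15.9% and 21.6% of all genes). Orc6 had log2 values of 9.76, 9.75 and 9.85 on the OP9-DL1+CompoundE arrays, 10.17, 10.23 and 10.31 on the OP9-DL1 arrays and 9.87, 9.95 and 9.96 on the OP9-GFP arrays. The OP9-DL1 arrays lay above all other arrays, and the CompoundE arrays lay just below those on OP9-GFP. The log2 difference of Orc6 was 0.31 ± 0.06 (SE) for OP9-DL1 against OP9-GFP (adjusted p = 0.000326, limma) and -0.45 ± 0.06 for CompoundE against OP9-DL1 (adjusted p = 4.92e-06). Orc4 was higher on OP9-DL1 than on OP9-GFP by 0.20, a call that was lost without any 1 of OP9-GFP replicates 1 and 2 and OP9-DL1 replicates 1 and 2 (adjusted p of 0.0605 to 0.0869) and when its 4 probe sets were averaged. Orc3 was lower with CompoundE than on OP9-DL1 by a log2 difference of -0.23 and than on OP9-GFP by -0.23, but its other probe sets gave 0.03 and -0.05 against OP9-DL1. Orc1, the subunit that binds and hydrolyses ATP, and Orc5 were not called in any comparison. On the probe set used, Orc2 was called only for CompoundE against OP9-GFP (-0.20, adjusted p = 0.0447). That call was lost without 8 of the 9 arrays, with an adjusted p of up to 0.157. A second probe set of Orc2 was called lower both with CompoundE and on OP9-DL1 against OP9-GFP (-0.39 and -0.29). The remaining one gave -0.49 and -0.35, neither called.

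Cdc6 and Cdt1 bring the helicase to the origin, and neither was called in any comparison. Cdc6 read 7.91, 7.86 and 7.94 on the OP9-DL1+CompoundE arrays, 8.0, 7.99 and 7.90 on the OP9-DL1 arrays and 7.99, 8.04 and 8.12 on the OP9-GFP arrays. Its differences were -0.09 ± 0.08 for OP9-DL1 against OP9-GFP and -0.06 ± 0.08 for CompoundE against OP9-DL1 (adjusted p = 0.461 and 0.551). Cdt1 differed by 0.03 ± 0.06 between CompoundE and OP9-DL1 on the probe set used, while a second probe set gave 0.32, which was called higher. The remaining probe set of Cdt1 was not above the brightest bacterial control on OP9-DL1 and OP9-GFP.

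Mcm2 to Mcm7 form the ring-shaped helicase that unwinds the DNA. With CompoundE 4 of the 6 subunits were lower than on OP9-DL1 and 5 were lower than on OP9-GFP, while on OP9-DL1 3 were higher than on OP9-GFP (66.7%, 83.3% and 50%, against 21.6%, 10.6% and 15.9% of all genes). Mcm3 had log2 values of 10.80, 10.54 and 10.69 on the OP9-DL1+CompoundE arrays, 11.24, 11.15 and 11.09 on the OP9-DL1 arrays and 10.91, 10.80 and 11.06 on the OP9-GFP arrays. Its OP9-DL1 arrays lay above all others, and the highest CompoundE array met the lowest OP9-GFP array at 10.80. The difference of Mcm3 with CompoundE was -0.48 ± 0.07 against OP9-DL1 (0.715-fold, adjusted p = 3.41e-05), and that of OP9-DL1 against OP9-GFP was 0.24 ± 0.07 (adjusted p = 0.0186).

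Mcm4, a subunit phosphorylated by the kinase that starts S phase, read 11.52, 11.31 and 11.41 on the OP9-DL1+CompoundE arrays, 11.81, 11.89 and 11.79 on the OP9-DL1 arrays and 11.61, 11.58 and 11.60 on the OP9-GFP arrays. The groups of Mcm4 did not overlap, with OP9-DL1 highest and CompoundE lowest. Its differences were -0.42 ± 0.05 for CompoundE against OP9-DL1 (adjusted p = 3.47e-06), -0.18 ± 0.05 for CompoundE against OP9-GFP (adjusted p = 0.0146) and 0.23 ± 0.05 for OP9-DL1 against OP9-GFP (adjusted p = 0.00164). Mcm7 read 11.44, 11.53 and 11.34 on the OP9-DL1+CompoundE arrays, 11.82, 11.71 and 11.86 on the OP9-DL1 arrays and 11.64, 11.68 and 11.61 on the OP9-GFP arrays, in the same order and without overlap. Its differences were -0.36 ± 0.05 against OP9-DL1 with CompoundE (adjusted p = 2.26e-05) and 0.15 ± 0.05 for OP9-DL1 against OP9-GFP (adjusted p = 0.0335).

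Mcm6 was lower with CompoundE by -0.47 ± 0.06 against OP9-DL1 (adjusted p = 2.85e-06) and by -0.32 ± 0.06 against OP9-GFP (adjusted p = 0.000557). Mcm2 was not called on the probe set used, with -0.23 ± 0.11 for CompoundE against OP9-DL1. Its arrays read 9.45, 9.49 and 9.04 on the OP9-DL1+CompoundE arrays, 9.53, 9.47 and 9.66 on the OP9-DL1 arrays and 9.42, 9.45 and 9.13 on the OP9-GFP arrays, so that replicate 3 stood apart in both the CompoundE and the OP9-GFP group. The second probe set of Mcm2 gave -0.65 and 0.39 in the CompoundE and ligand comparisons, both called. For Mcm5 the probe set used gave -0.16 and -0.10, neither called, and a second one gave -0.54 and 0.29, both called. The second probe sets thus put Mcm2 and Mcm5 with the other 4 subunits, and the probe sets chosen by brightness did not. Among the ligand differences of the ring, the call of Mcm3 was lost without OP9-GFP replicate 1, OP9-GFP replicate 2 or OP9-DL1 replicate 1 (adjusted p of 0.0604, 0.117 and 0.103), and that of Mcm7 without any 1 of the 6 arrays except OP9-DL1 replicate 2 (adjusted p of 0.0532 to 0.134).

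**Figure D3:**
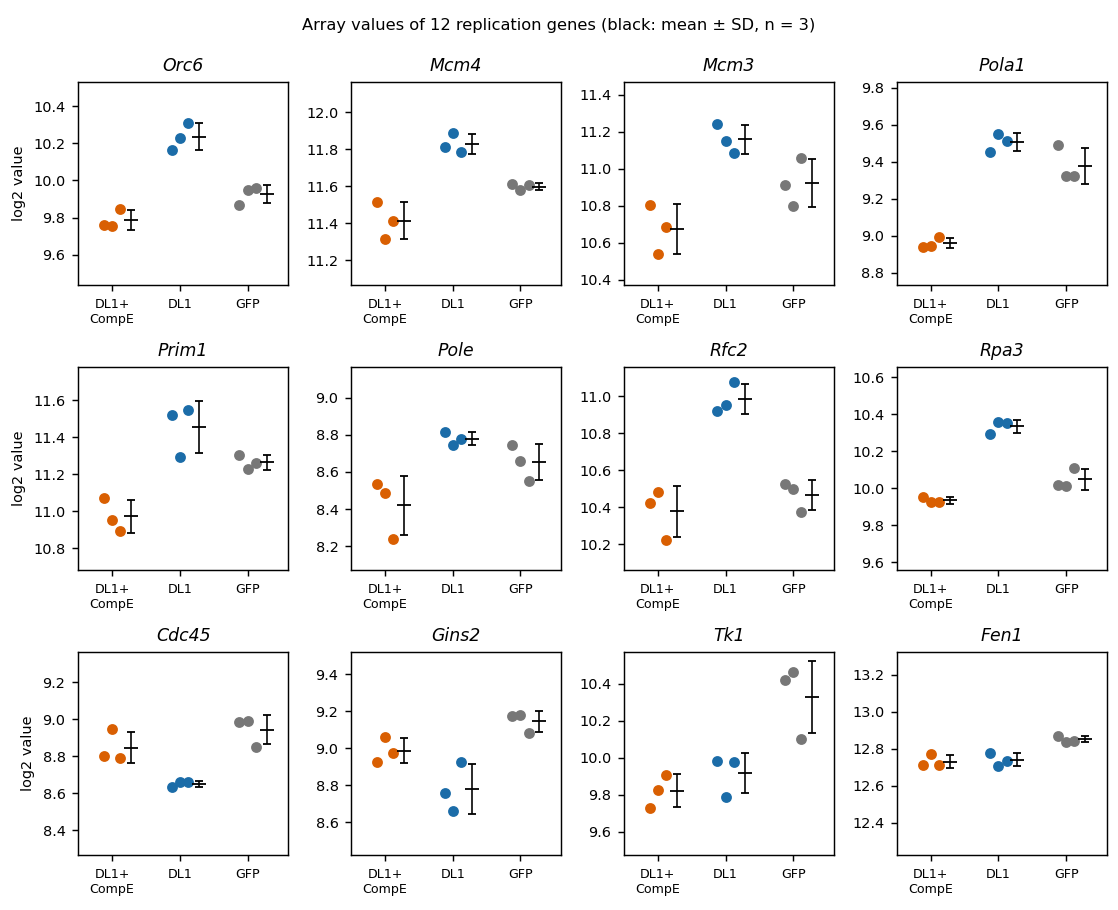
Log2 values (y axis, a separate range for each gene) of 12 replication genes on each of the 9 arrays, with the mean and SD of the 3 arrays in black. For Orc6, Mcm3, Mcm4, Pole, Rfc2 and Rpa3 the 3 OP9-DL1 arrays lie above the other 6, by a small margin for Mcm3 and Pole. For Cdc45 they lie below them.

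Cdc45, the GINS complex and Mcm10 activate the loaded ring. Of these 6 genes 2, Cdc45 and Gins2, were lower on OP9-DL1 than on OP9-GFP (33.3%, against 16.7% of all genes). The same 2 were higher with CompoundE than on OP9-DL1 (33.3%, near the 25.1% of all genes). Cdc45 read 8.80, 8.94 and 8.79 on the OP9-DL1+CompoundE arrays, 8.63, 8.66 and 8.66 on the OP9-DL1 arrays and 8.99, 8.99 and 8.85 on the OP9-GFP arrays. All 3 OP9-DL1 arrays lay below the other 6, and the other groups overlapped. The difference of Cdc45 was -0.29 ± 0.07 for OP9-DL1 against OP9-GFP (adjusted p = 0.00306) and 0.20 ± 0.07 for CompoundE against OP9-DL1 (adjusted p = 0.0285). Gins2, 1 of the 4 GINS subunits, read 8.93, 9.06 and 8.98 on the OP9-DL1+CompoundE arrays, 8.76, 8.66 and 8.93 on the OP9-DL1 arrays and 9.18, 9.18 and 9.08 on the OP9-GFP arrays. Its OP9-DL1 arrays lay below those on OP9-GFP, and 1 of them, replicate 3, reached the CompoundE arrays. Its differences were -0.37 ± 0.07 for OP9-DL1 against OP9-GFP (adjusted p = 0.000929) and 0.21 ± 0.07 for CompoundE against OP9-DL1 (adjusted p = 0.0321).

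Neither of the higher calls with CompoundE held when single arrays were left out. That of Cdc45 was lost without any 1 of the OP9-DL1 arrays or CompoundE replicate 2 (adjusted p of 0.0545 to 0.107), and that of Gins2 without OP9-DL1 replicate 1 or 2 or CompoundE replicate 2 or 3 (0.0512 to 0.154). Both calls were also lost with quantile normalization and with probe sets averaged. With arrays centred on their medians both held, at 0.27 for Cdc45 and 0.28 for Gins2 (adjusted p = 0.00415 and 0.00422, limma). For CompoundE against OP9-DL1 the second probe set of Cdc45 gave -0.10 and that of Gins2 0.04, neither called. The other subunits of GINS did not share the direction of Gins2 throughout. Gins1 was lower with CompoundE by -0.32 ± 0.06 against OP9-DL1 and by -0.37 ± 0.06 against OP9-GFP (adjusted p = 0.000334 and 0.00034), and Gins3 by -0.33 ± 0.09 against OP9-DL1 (adjusted p = 0.00477). Gins4 and Mcm10 were not called, with 0.13 and 0.03 for CompoundE against OP9-DL1, although 2 further probe sets of Mcm10 were called lower on OP9-DL1 than on OP9-GFP (-0.31 and -0.39).

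Primase, made of Prim1 and Prim2, starts each new strand, and the catalytic subunit Pola1 with Pola2 extends the primer. With CompoundE Pola1, Prim1 and Prim2 were lower than on OP9-DL1 and lower than on OP9-GFP. Pola1 read 8.94, 8.95 and 8.99 on the OP9-DL1+CompoundE arrays, 9.45, 9.55 and 9.51 on the OP9-DL1 arrays and 9.49, 9.32 and 9.32 on the OP9-GFP arrays. Its CompoundE arrays lay below all 6 others, while OP9-DL1 and OP9-GFP overlapped. The difference of Pola1 was -0.55 ± 0.06 against OP9-DL1 (0.685-fold, adjusted p = 2.13e-06) and -0.42 ± 0.06 against OP9-GFP (adjusted p = 0.000171), and 0.13 ± 0.06 for OP9-DL1 against OP9-GFP, which was not called. Its second probe set lay at the level of the bacterial controls in all groups.

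Prim1 read 11.07, 10.95 and 10.89 on the OP9-DL1+CompoundE arrays, 11.52, 11.29 and 11.55 on the OP9-DL1 arrays and 11.31, 11.23 and 11.26 on the OP9-GFP arrays. Its CompoundE arrays were again the lowest, and OP9-DL1 replicate 2 fell within the range of the OP9-GFP arrays. Its differences were -0.48 ± 0.06 for CompoundE against OP9-DL1 (adjusted p = 9.37e-06) and 0.19 ± 0.06 for OP9-DL1 against OP9-GFP (adjusted p = 0.0313). The second of these was lost without OP9-GFP replicate 2 or 3 or OP9-DL1 replicate 1 or 3 (adjusted p of 0.0657 to 0.151). Prim2 was lower with CompoundE by -0.36 ± 0.07 against OP9-DL1 and by -0.46 ± 0.07 against OP9-GFP (adjusted p = 0.000212 and 9.92e-05). Pola2, the accessory subunit, was not called, with an SD of 0.26 between the CompoundE arrays.

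Polymerase epsilon copies the leading strand and polymerase delta the lagging strand. Of the subunits listed, Pold2 and the catalytic subunit Pole were lower with CompoundE than on OP9-DL1, and Pold1 and Pole2 were not called. Pole read 8.54, 8.49 and 8.24 on the OP9-DL1+CompoundE arrays, 8.82, 8.75 and 8.78 on the OP9-DL1 arrays and 8.75, 8.66 and 8.55 on the OP9-GFP arrays. The OP9-DL1 arrays lay highest, with OP9-GFP replicate 1 close below them, and CompoundE replicate 3 was the lowest. The difference of Pole was -0.36 ± 0.08 for CompoundE against OP9-DL1 (adjusted p = 0.002) and 0.13 ± 0.08 for OP9-DL1 against OP9-GFP (adjusted p = 0.292). Pold2, which joins the delta subunits, was lower with CompoundE by -0.30 ± 0.08 against OP9-DL1 and by -0.39 ± 0.08 against OP9-GFP (adjusted p = 0.00358 and 0.00149).

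The replication factor C complex opens the Pcna ring and sets it on DNA, and its subunit Rfc2 showed the largest difference of the 43 genes both for OP9-DL1 against OP9-GFP and for CompoundE against OP9-DL1. Rfc2 read 10.42, 10.48 and 10.22 on the OP9-DL1+CompoundE arrays, 10.92, 10.95 and 11.07 on the OP9-DL1 arrays and 10.52, 10.50 and 10.37 on the OP9-GFP arrays. The OP9-DL1 arrays lay above the other 6, and the other 2 groups overlapped. The difference of Rfc2 was 0.52 ± 0.07 for OP9-DL1 against OP9-GFP (1.43-fold, adjusted p = 1.16e-05), -0.61 ± 0.07 for CompoundE against OP9-DL1 (0.657-fold, adjusted p = 1.35e-06) and -0.09 ± 0.07 for CompoundE against OP9-GFP (adjusted p = 0.389). Its 2 other probe sets gave 0.44 and 0.27 on OP9-DL1 against OP9-GFP and -0.60 and -0.52 with CompoundE, all called.

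Among the other subunits of the loader, Rfc3 also had its OP9-DL1 arrays above the other 6. It was lower with CompoundE by -0.31 ± 0.06 against OP9-DL1 (adjusted p = 0.000853) and differed by 0.11 between OP9-DL1 and OP9-GFP, which was not called. Rfc4 was lower on OP9-DL1 than on OP9-GFP by -0.21 ± 0.08 (adjusted p = 0.0471), a call lost without OP9-GFP replicate 1 or 2, OP9-DL1 replicate 1 or 2, or CompoundE replicate 1 (adjusted p of 0.0626 to 0.232). The other probe set of Rfc4 gave -0.19 for OP9-DL1 and -0.21 for CompoundE against OP9-GFP, both called. Rfc1, Rfc5 and the clamp Pcna were not called in any comparison. Pcna, often used as a marker of dividing cells, averaged 12.29 ± 0.08 with CompoundE, 12.35 ± 0.01 on OP9-DL1 and 12.35 ± 0.02 on OP9-GFP (SD, n = 3 each).

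Replication protein A coats single-stranded DNA as a complex of 3 subunits. All 3 were lower with CompoundE than on OP9-DL1 (100%, against 21.6% of all genes). Rpa3, the smallest subunit, read 9.96, 9.93 and 9.92 on the OP9-DL1+CompoundE arrays, 10.29, 10.36 and 10.36 on the OP9-DL1 arrays and 10.02, 10.01 and 10.11 on the OP9-GFP arrays. Its groups did not overlap, and the CompoundE arrays lay closest to those on OP9-GFP. The difference of Rpa3 was -0.40 ± 0.05 for CompoundE against OP9-DL1 (adjusted p = 5.82e-06) and 0.29 ± 0.05 for OP9-DL1 against OP9-GFP (adjusted p = 0.00026). Rpa1, the large subunit that binds DNA, was lower with CompoundE by -0.20 ± 0.05 against OP9-DL1 and by -0.30 ± 0.05 against OP9-GFP (adjusted p = 0.00531 and 0.000613). With arrays centred on their medians the first of these was -0.12 and not called (adjusted p = 0.0536). Rpa2 was lower by -0.29 ± 0.06 against OP9-DL1 (adjusted p = 0.000525).

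Ribonucleotide reductase, thymidylate synthase and thymidine kinase supply deoxynucleotides. Tk1, the thymidine kinase of dividing cells, read 9.73, 9.83 and 9.91 on the OP9-DL1+CompoundE arrays, 9.98, 9.79 and 9.98 on the OP9-DL1 arrays and 10.42, 10.47 and 10.10 on the OP9-GFP arrays. The OP9-GFP arrays were the highest, with replicate 3 below the other 2, and the other groups overlapped. The difference of Tk1 was -0.41 ± 0.09 for OP9-DL1 against OP9-GFP (adjusted p = 0.00112), -0.51 ± 0.09 for CompoundE against OP9-GFP (adjusted p = 0.000432) and -0.10 ± 0.09 for CompoundE against OP9-DL1 (adjusted p = 0.377). Rrm1, the large subunit of the reductase, was lower with CompoundE by -0.31 ± 0.05 against OP9-DL1 and by -0.41 ± 0.05 against OP9-GFP (adjusted p = 0.000158 and 4.82e-05).

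Rrm2, the small subunit whose level follows S phase, was not called on the probe set used (-0.12 for CompoundE against OP9-DL1 and 0.02 for OP9-DL1 against OP9-GFP). A second probe set of Rrm2 gave 0.65 and -0.60 in these comparisons, both called, and the remaining one gave -0.01 and -0.06. The 0.65 for CompoundE against OP9-DL1 was opposite in direction to most of the other replication genes. For OP9-DL1 against OP9-GFP the replication genes moved in both directions, without a common direction that the -0.60 could oppose. Tyms, the thymidylate synthase, averaged 5.80 ± 0.03 with CompoundE, 5.97 ± 0.19 on OP9-DL1 and 5.98 ± 0.16 on OP9-GFP on the probe set used and was not called, whereas another probe set gave -0.75 with CompoundE against OP9-DL1 and was called. A further probe set of Tyms is annotated to more than 1 gene and was not used.

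Fen1 removes the flaps and Lig1 seals the nicks between the fragments of the lagging strand. Fen1 read 12.71, 12.77 and 12.71 on the OP9-DL1+CompoundE arrays, 12.78, 12.71 and 12.74 on the OP9-DL1 arrays and 12.87, 12.84 and 12.84 on the OP9-GFP arrays. The OP9-GFP arrays lay above the other 6, and the CompoundE and OP9-DL1 arrays overlapped. Its difference was -0.11 ± 0.04 for OP9-DL1 against OP9-GFP (adjusted p = 0.0229) and -0.12 ± 0.04 for CompoundE against OP9-GFP (adjusted p = 0.0223). The first was lost without OP9-GFP replicate 1, OP9-GFP replicate 2 or OP9-DL1 replicate 2 (adjusted p of 0.104, 0.0564 and 0.0885), and the second without either of these OP9-GFP arrays or CompoundE replicate 1 or 3 (0.0566 to 0.0996). With arrays centred on their medians the second was -0.060 (adjusted p = 0.263). The other probe set of Fen1 gave -0.26 for OP9-DL1 and -0.22 for CompoundE against OP9-GFP, both called. Lig1 was not called in any comparison.

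Among the calls for CompoundE against OP9-GFP, those of Orc3, Mcm3, Mcm4, Mcm5 and Rfc3 were also lost without some arrays. The call of Orc3 was lost without OP9-GFP replicate 1 or 2 or CompoundE replicate 1 (adjusted p of up to 0.093), and that of Mcm3 without OP9-GFP replicate 1 or 3 or CompoundE replicate 2 (up to 0.104). Mcm4 was lost without OP9-GFP replicate 1 or CompoundE replicate 2 (up to 0.0601), and Mcm5 without OP9-GFP replicate 1 or 2 or CompoundE replicate 1 or 3 (up to 0.127). Rfc3 was lost without any array except OP9-DL1 replicate 3 (up to 0.122). The other 10 of the 17 calls held whichever array was left out.

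**Figure D4:**
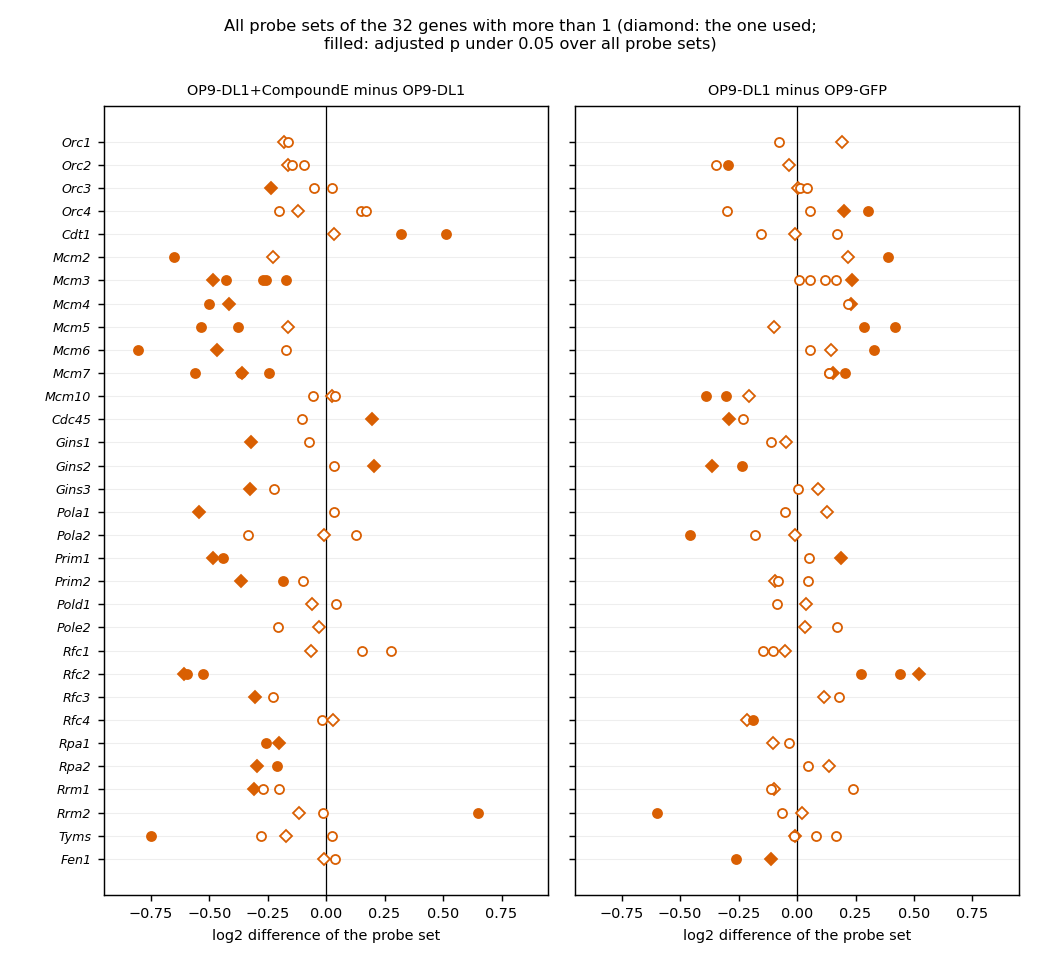
Log2 differences (x axis) of all probe sets of the 32 replication genes that have more than 1, with a diamond for the probe set used and filled symbols where the adjusted p was under 0.05 over all probe sets. For Rrm2 and Mcm5 the symbols of 1 gene lie far apart.

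Over all 96 probe sets of the 43 genes, 38 were lower with CompoundE than on OP9-DL1, against 20.3% of all probe sets with 1 symbol, and 5 were higher, against 22% of them. Among the 53 that were not used, 19 were lower and 3 higher, 1 of the 3 being the Cdt1 probe set that was not above the bacterial controls on OP9-DL1, and their median log2 difference was -0.1726. In OP9-DL1 against OP9-GFP, 8 of those 53 were higher and 8 lower, against 13.6% and 14.6% of all probe sets with 1 symbol. Probe sets of 1 gene read the same RNA and are no replicates of each other.

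The genes were also split by E2F words over all promoters searched, most of which are not shown. With CompoundE against OP9-DL1, 7 of the 14 genes with a word were lower, with a median difference of -0.21. Of the 22 genes without one 7 were lower and 1 higher, with a median of -0.12, where 21.6% of all genes were lower and 25.1% higher. For OP9-DL1 against OP9-GFP, 2 of the 14 were higher and none lower, and of the 22 without a word 4 were higher and 4 lower, where 15.9% of all genes were higher and 16.7% lower. These counts describe the genes and were not tested.

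Other genes of replication and S phase, listed by role, are given for the setting in which the 43 stand. Over all genes 21.6% were lower and 25.1% higher with CompoundE than on OP9-DL1, and 15.9% were higher and 16.7% lower on OP9-DL1 than on OP9-GFP. Of 23 other replication factors 11 were lower (47.8%) and 3 higher (13%) with CompoundE than on OP9-DL1. Those with the smallest p-values were Atad5, which unloads the clamp, at -0.75, Pole4, a small subunit of polymerase epsilon, at -0.85, and Dtl, which directs the removal of Cdt1, at -0.56. On OP9-DL1 against OP9-GFP 6 were higher and 7 lower, with Atad5 at 0.41, Pole4 at 0.49 and Pold4, a subunit of polymerase delta, at -0.63. The Pole4 difference from OP9-GFP was 0.12 and not called when its probe sets were averaged.

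Of 14 other measured genes of nucleotide metabolism 8 were lower (57.1%) and 3 higher (21.4%) with CompoundE than on OP9-DL1, and 3 were higher and 2 lower on OP9-DL1 than on OP9-GFP. Samhd1, which breaks down deoxynucleotides, read 12.09, 12.08 and 11.92 on the OP9-DL1+CompoundE arrays, 10.79, 10.69 and 10.90 on the OP9-DL1 arrays and 11.55, 11.57 and 11.32 on the OP9-GFP arrays. It was higher with CompoundE by 1.24 ± 0.07 (adjusted p = 3.43e-10), and on OP9-DL1 it was lower than on OP9-GFP by -0.69 ± 0.07 (adjusted p = 6.94e-07). Its groups did not overlap, and its order was the reverse of that of Mcm4. Dut and Dctpp1, which clear dUTP and dCTP, differed by -0.64 and -0.69 with CompoundE, and Dut and Dctd, a deaminase, by 0.32 and 0.58 on OP9-DL1 against OP9-GFP.

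Of 13 genes of the E2F and retinoblastoma families 4 were lower (30.8%) and 2 higher (15.4%) with CompoundE than on OP9-DL1. On OP9-DL1 against OP9-GFP 2 were higher and 2 lower (15.4% each), shares near those of all genes in that comparison. E2f2, an activating E2F, read 9.85, 9.79 and 9.75 on the OP9-DL1+CompoundE arrays, 7.75, 7.77 and 7.73 on the OP9-DL1 arrays and 9.40, 9.35 and 9.39 on the OP9-GFP arrays. Its OP9-DL1 arrays lay below the other 6, with 2.05 ± 0.06 for CompoundE against OP9-DL1 (adjusted p = 1.23e-13) and -1.63 ± 0.06 for OP9-DL1 against OP9-GFP (adjusted p = 3.31e-12). Tfdp2, a partner that E2F factors need to bind DNA, went the other way, with -1.11 and 0.67. On its dimmest probe set Tfdp2 gave -0.12 and 0.09, neither called. E2f3 differed by -0.42 and 0.23, the second of which was 0.11 and not called with its probe sets averaged.

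Chromatin assembly at the fork and the S phase checkpoint had the largest shares of lower genes among these lists with CompoundE against OP9-DL1 (80% and 77.8%), but not on OP9-DL1 against OP9-GFP (10% and 22.2%, against 30.4% of the other replication factors). With CompoundE, 8 of 10 measured assembly genes were lower than on OP9-DL1 and 1 was higher, with the helicase Hells at -0.89, the histone binder Rbbp7 at -0.40 and the histone chaperone Asf1a at -0.42. On OP9-DL1 against OP9-GFP 4 were higher and 1 lower, with Asf1a at 0.23, its paralog Asf1b at -0.51 and Supt16 at 0.16, the last of which was 0.080 and not called with its probe sets averaged and 0.13 without OP9-DL1 replicate 1 (adjusted p = 0.0741). Of 9 measured checkpoint and repair genes 7 were lower and 1 higher with CompoundE than on OP9-DL1, with the helicase Blm at -0.90, the uracil glycosylase Ung at -0.66 and the mismatch repair gene Msh6 at -0.44. On OP9-DL1 against OP9-GFP 2 were higher and 2 lower, with Fanci at -0.75, Blm at 0.50 and the checkpoint kinase Chek1 at 0.32, the last of which was 0.21 and not called with its probe sets averaged.

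**Figure D5:**
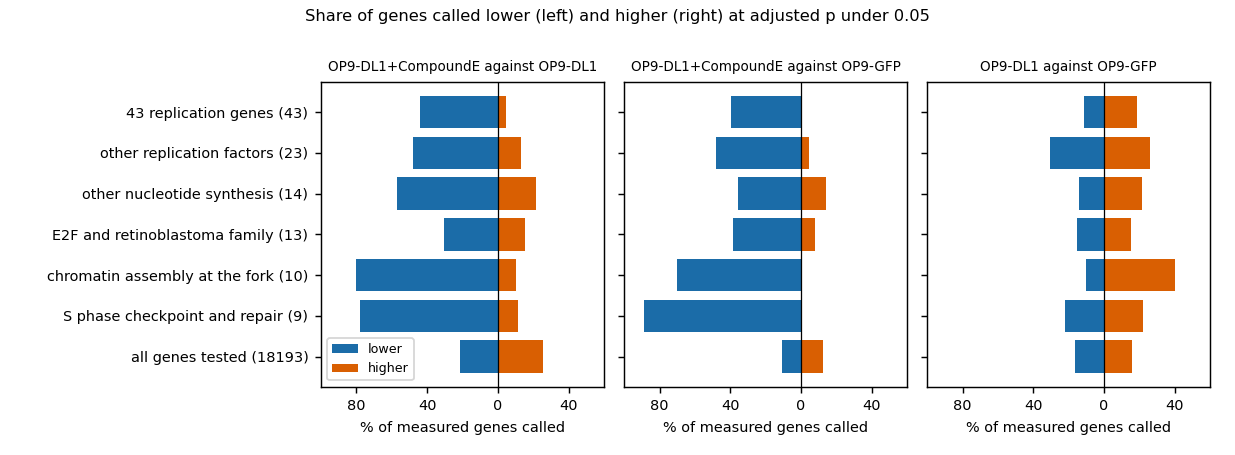
Percent of the measured genes of each list (number in brackets) called lower (left of 0) and higher (right of 0) at an adjusted p under 0.05 in each comparison. With CompoundE against OP9-DL1 44.2% of the 43 replication genes were lower and 4.65% higher, against 21.6% and 25.1% of all genes.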

How the data were processed

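RNA from each culture (25 ng, amplified and biotin-labelled) was measured on 9 one-colour oligonucleotide arrays, 3 per group, and the titles of the samples gave their groups and replicate numbers. For each of 45101 probe sets the authors deposited a log2 value per array. The submitters' processing notes list MAS5 and GCRMA 2.4.1 but do not say what each was used for, and which of them made these values could not be settled. The medians of the arrays lay between 4.78 and 4.94. If the values were shrunk at the dim end, differences of dim probe sets are understated.

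Gene symbols were those of the platform annotation, with 34741 symbols updated through a RefSeq table for GRCm38.p6. Of the probe sets, 34945 had 1 symbol, 932 several and 9160 none, and 64 were array controls. Each of 18193 genes was tested by its brightest probe set with limma 3.58.1 in R 4.3.3 (lmFit, eBayes with an intensity trend) on all 9 arrays, with no covariate, further normalization or filter. The adjustment was that of Benjamini and Hochberg over the 18193 genes in each comparison, at a threshold of 0.05. SE is from the model and SD is between the 3 arrays of a group. The data have no read depth, and 3 of the 43 genes had equal values on arrays of 1 group.

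The members and gene lists were chosen with earlier results of these data known. Values per array are given for members called in both of the first 2 comparisons (OP9-DL1 against OP9-GFP, OP9-DL1+CompoundE against OP9-DL1) and for the member with the largest difference in its role class. Mcm2 and the single probe sets were added after their values were seen. From each further list up to 3 genes with the smallest p in each of these comparisons are named. The procedure was tested on simulated data over 18193 genes, built from the OP9-GFP means and the spread within all 3 groups. Only 50 genes for each size of change were altered, in OP9-DL1 against OP9-GFP. For genes changed 1.2-fold the procedure called 18% of 50, for 1.5-fold 70% of 50, for 2-fold 94% of 50 and for 4-fold 100% of 50. Of its 151 calls 10 were false.

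The alternatives were quantile normalization, arrays centred on their medians, log2(linear value + 32), filters on dim genes and on genes with equal values, other choices of probe set (the mean of all, or the dimmest), a variance model without intensity trend, fits to only the 6 arrays at issue, a block for the replicate number, leaving out arrays singly, and stricter thresholds.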

Additional observations from a re-analysis of the deposited data

How the results depend on the processing

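The counts of the 43 replication genes called higher and lower were recomputed under each alternative. For OP9-DL1 against OP9-GFP, with 8 higher and 5 lower, quantile normalization gave 3 lower, averaging of probe sets 9 lower, the dimmest probe set 5 higher, no intensity trend 5 higher and 3 lower, and an adjusted p under 0.01 4 higher and 3 lower. For OP9-DL1+CompoundE against OP9-DL1, with 2 higher and 19 lower, quantile normalization and an adjusted p under 0.01 each gave 0 higher, no intensity trend and only the 6 arrays compared each gave 1 higher, and the dimmest probe set gave 12 lower. For OP9-DL1+CompoundE against OP9-GFP, with 0 higher and 17 lower, centring on the median, no intensity trend and an adjusted p under 0.01 each gave 10 lower, the mean of probe sets gave 1 higher, and the dimmest probe set gave 1 higher and 9 lower. At 1.5-fold or more, 0 genes were called in the first and last comparisons, and 0 higher and 1 lower in the second. The cause of these shifts was not tested. With 1 array left out, the first comparison gave 4 to 9 higher and 3 to 6 lower, the second 0 to 2 higher and 19 to 22 lower, and the last 0 higher and 10 to 16 lower.

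With the replicate number as a block (replicate block), 8 were higher and 4 lower in the first comparison, 2 and 19 in the second and 0 and 16 in the last. Deviations of arrays with the same number correlated at -0.115 to 0.119, so the numbers are not taken to pair the samples. Centring moved the median of all genes by 0.0773 in the second comparison and by 0.0595 in the last, and the share of higher genes among all called genes to 66% from 53.8% in the second and to 70.2% from 53.4% in the last.

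Of 2568 recomputed values of single replication genes 66 gained a call and 134 lost one without a change of direction. The sign differed from that reported in 109. In 10 of these the gene was called before or after, all 10 from another choice of probe set, and in 99 it was called in neither. Of the 99, 71 came from other alternatives and concerned differences of at most 0.0657 in size. With probe sets averaged, Mcm5 and Rrm2 were at 0.20 and -0.21 in the first comparison, and Rrm2 at 0.17 in the second. With the dimmest probe set, the first comparison gave Orc4 -0.30, Mcm5 0.42 and Rrm2 -0.60, the second Cdc45 -0.10, Rrm2 0.65 and Pola1 0.033 (not above the bacterial controls), and the last Mcm5 0.041. Among 2259 values of genes outside the 43, 11 called ones changed direction, all with the dimmest probe set: Pole4 -0.0099, Dtl -0.13, E2f3 -0.010, Supt16 -0.0020, Fanci 0.015 and Chek1 -0.13 in the first comparison, Pole4 0.17 and Chek1 0.21 in the second, and Pole4 0.16, Chek1 0.081 and the feeder marker Ccn1 0.15 in the last. In the simulated data, with 3 arrays per group, differences of 1.2-fold were mostly missed. Far fewer genes were changed there than the 32.6% of all genes called on OP9-DL1 against OP9-GFP, so its adjusted threshold was stricter. How often such differences were missed there cannot be carried over to the 43 genes. A gene that was not called may still differ.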
